A study of Mus musculus with 9 samples.

Results

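The genes described here are 39 mouse genes of cholesterol and fatty acid synthesis and handling, chosen by name from the 48663 entries of a gene count table. They comprise 7 enzymes of the mevalonate pathway, 11 enzymes that make squalene and convert it to cholesterol, 7 sensors and transcription factors, 5 genes of fatty acid synthesis, 6 of fatty acid elongation and desaturation, and 3 of sterol transfer and efflux. All 39 had an entry in the table, and 38 passed the filter on low counts and were tested. The exception was Fads2, a fatty acid desaturase, which had 2, 29 and 0 counts in the CD4 ThpokAD libraries and 0 counts in each of the 6 control libraries.

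Cells make cholesterol from acetyl-CoA through mevalonate, isoprenoids, squalene and lanosterol, and they make fatty acids from the same acetyl-CoA through malonyl-CoA. When sterol in the endoplasmic reticulum is low, the escort protein SCAP carries the membrane-bound factors SREBP1 and SREBP2 to the Golgi, where they are cut and released to switch on the synthesis genes. When sterol is high, the INSIG proteins hold SCAP back, and oxysterols activate the LXR receptors, which switch on the sterol exporters. T cells raise both synthesis pathways when they are activated and divide, and resting cells use them less.

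RNA was sequenced from virus-specific memory T cells sorted from mouse spleen on day 30 after the mice received the Armstrong strain of LCMV (lymphocytic choriomeningitis virus), which causes an acute infection, with 3 libraries in each of 3 groups. CD4 ThpokAD cells bound a class II tetramer carrying a viral peptide (GP66:I-Ab) and came from Ox40-Cre+ Thpokfl/fl mice. In these mice Cre is driven from the gene of Ox40, a costimulatory receptor of activated T cells, and acts on floxed alleles of Thpok, a zinc finger factor needed for helper T cell identity. CD8 control cells bound a class I tetramer carrying another peptide (GP33:H-2Db) and came from Ox40-Cre- mice. CD4 control cells bound the GP66:I-Ab tetramer and also came from Ox40-Cre- mice. Cre was present in the CD4 ThpokAD group only, so the effects of Cre and of Thpok loss cannot be told apart, and in the CD8 control against CD4 control comparison lineage, peptide and tetramer class go together. Between CD4 ThpokAD and CD8 control cells lineage, peptide, tetramer class, Cre and Thpok loss all go together, so their effects cannot be told apart. Nothing in the labels ties the libraries of a group to different mice, so a p-value here reflects only how these libraries vary, which may be technical.

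Libraries held 16664474 to 38981516 counts. Zbtb7b, the gene of Thpok, had 0.698, 0.875 and 0.849 CPM (counts scaled to library size) in CD4 ThpokAD cells, 24.0, 19.4 and 18.8 CPM in CD8 control cells and 38.5, 47.6 and 48.9 CPM in CD4 control cells. All 8 T cell markers examined were detected in every group. Cd4 had 551 to 679 CPM in CD4 ThpokAD cells, 0.222 to 2.26 CPM in CD8 control cells and 1295 to 1409 CPM in CD4 control cells, and the CD8 genes Cd8a and Cd8b1 together had 90.8 to 123, 2830 to 3832 and 17.8 to 27.9 CPM in the same groups. Since these are bulk samples, fewer cells of a type and less RNA per cell cannot be told apart. CPM values below use library sizes scaled by the TMM method, log2 fold changes carry their standard error (SE), and a gene was called where the adjusted p of edgeR's quasi-likelihood test over all 15738 tested genes was under 0.05.

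Of the 38 tested genes, 4 were called in at least 1 of the 3 comparisons: the sterol regulators Srebf2 and Insig1, the sterol enzyme Cyp51 and the acetyl-CoA synthetase Acss2. The other 34 were called in none.

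edgeR called 2 of the 38 tested genes (5.26%) in CD4 ThpokAD against CD4 control cells, where 2.74% of all tested genes were called. Acss2 was called higher, as were 1.81% of all tested genes, and Srebf2 lower, as were 0.928%. The lineage comparison, CD8 control against CD4 control, called 4 of 38 (10.5%), where 11.7% of all tested genes were called. Acss2 was called higher, as were 5.13% of all tested genes, and Srebf2, Insig1 and Cyp51 lower, as were 6.55%. Setting CD4 ThpokAD against CD8 control cells called 1 of 38 (2.63%), where 6.54% of all tested genes were called. Cyp51 was called higher, as were 4.63% of all tested genes, and no gene of the 38 lower, against 1.91%, with 1 at an unadjusted p under 0.05 and 0 called lower by DESeq2. The share of 10.5% is near its background and that of 2.63% is below it, and the share of 5.26% rests on 2 genes. Libraries of the groups did not overlap for 11 genes (28.9%) in each of the 3 comparisons, against 25.7%, 33.9% and 27.1% of all genes tested. The median log2 fold change of the 38 genes was -0.04, -0.17 and 0.08 in the same order of comparisons, against 0.003, 0.01 and -0.01 over all genes tested. The first and second comparisons share the CD4 control libraries, so their values for Srebf2 and Acss2 are not independent.

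**Figure D1:**
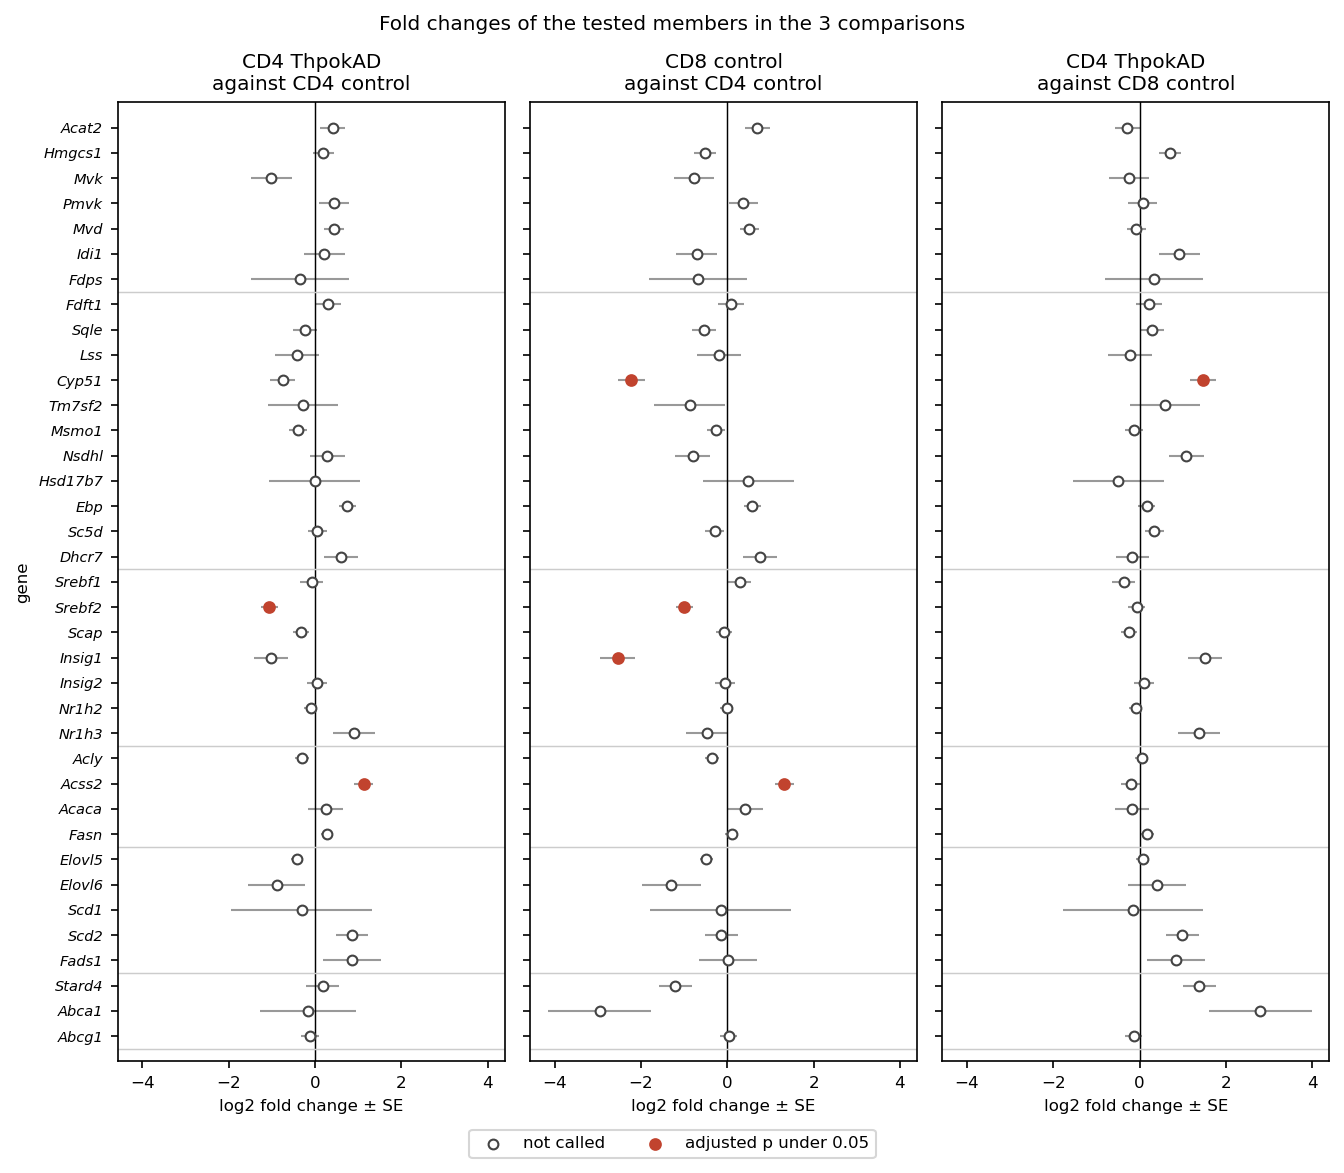
Log2 fold change ± SE (horizontal axis) of each gene in the 3 comparisons, from edgeR's quasi-likelihood fit of all 9 libraries, with filled points where the adjusted p is under 0.05. Acacb and Fads2 are left out for their low counts, and 2, 4 and 1 points are filled in the 3 panels.

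The promoter windows of these 4 genes are shown because they are the called genes, and because short binding motifs of sterol-regulated promoters can be looked for in them. Each window runs 5′ to 3′ on the gene's strand from 250 bases before to 50 bases after the RefSeq start of the gene (build GRCm38.p6), and capitals mark matches to an SRE-like motif (ATCACCNCA, after the sterol regulatory element bound by SREBPs), an E-box (CACGTG) or a CCAAT box (CCAAT), on either strand, so that a CCAAT box on the other strand reads ATTGG.
Srebf2, chr15:82147019-82147318, plus strand: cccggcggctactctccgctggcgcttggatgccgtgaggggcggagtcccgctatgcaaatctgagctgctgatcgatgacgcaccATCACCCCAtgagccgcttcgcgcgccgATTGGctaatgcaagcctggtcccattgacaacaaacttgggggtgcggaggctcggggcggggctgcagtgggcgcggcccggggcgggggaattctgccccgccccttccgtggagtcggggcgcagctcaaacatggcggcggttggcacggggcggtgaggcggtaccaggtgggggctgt
Insig1, chr5:28071162-28071461, plus strand: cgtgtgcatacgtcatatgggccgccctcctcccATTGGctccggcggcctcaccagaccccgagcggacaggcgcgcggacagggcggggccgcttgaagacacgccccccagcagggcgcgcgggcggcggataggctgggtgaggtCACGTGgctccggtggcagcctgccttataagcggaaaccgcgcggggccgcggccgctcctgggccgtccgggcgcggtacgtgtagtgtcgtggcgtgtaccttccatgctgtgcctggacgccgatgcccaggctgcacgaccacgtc
Cyp51, chr5:4104648-4104947, minus strand: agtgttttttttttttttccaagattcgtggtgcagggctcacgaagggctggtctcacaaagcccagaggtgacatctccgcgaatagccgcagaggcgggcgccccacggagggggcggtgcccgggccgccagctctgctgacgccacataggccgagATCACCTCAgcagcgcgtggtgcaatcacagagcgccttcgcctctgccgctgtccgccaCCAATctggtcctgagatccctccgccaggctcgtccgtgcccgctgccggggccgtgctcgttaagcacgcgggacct
Acss2, chr2:155517793-155518092, plus strand: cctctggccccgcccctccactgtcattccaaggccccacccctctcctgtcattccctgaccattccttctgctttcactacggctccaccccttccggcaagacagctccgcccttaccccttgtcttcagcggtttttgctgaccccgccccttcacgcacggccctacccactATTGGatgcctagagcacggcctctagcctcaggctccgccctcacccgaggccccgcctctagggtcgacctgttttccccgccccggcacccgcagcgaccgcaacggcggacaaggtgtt

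The Srebf2 window held the SRE-like match ATCACCCCA from base 88 of the window and the Cyp51 window held ATCACCTCA from base 162. These were the only SRE-like matches among the 31 genes of the 39 for which a RefSeq window was matched (6.45% of them), against 0.895% of the 27025 genes with a window. Insig1 held a CACGTG from base 150, and the 4 windows each held a CCAAT box. Over the 31 genes with a window, 7 (22.6%) held CACGTG, 23 (74.2%) held CCAAT and 23 (74.2%) held the GC box GGGCGG, against 8.09%, 41.1% and 38.2% of all genes with a window. The genes with a window were not limited to those tested here, so no share is set against expressed genes alone. The motif letters were chosen with these promoters in view, matches can share bases, both strands were read, and a match is a description of the letters only. Acss2 held neither an SRE-like match nor CACGTG in this window.

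The sensors and transcription factors held 2 of the 4 called genes: the gene of SREBP2 and the gene of its retention factor INSIG1 were both highest in CD4 control cells. Srebf2 (chr15:82147181-82205379, plus strand, GRCm38), which encodes the SREBP that mainly drives sterol genes, had 65.2, 107 and 81.3 CPM in CD4 ThpokAD cells, 81.8, 83.2 and 99.8 CPM in CD8 control cells and 197, 179 and 150 CPM in CD4 control cells. Every CD4 control library was above every library of the other groups, and the CD4 ThpokAD and CD8 control libraries overlapped. Srebf2 fell by 1.05 ± 0.20 (SE) on the log2 scale in CD4 ThpokAD against CD4 control cells, which is 2.08-fold lower (edgeR quasi-likelihood adjusted p = 0.0281). It also fell in CD8 control against CD4 control cells, by 0.99 ± 0.20, which is 1.99-fold lower (adjusted p = 0.0132). Between CD4 ThpokAD and CD8 control cells the log2 difference was -0.06 with a 95% interval of -0.55 to 0.42, and it was not called (adjusted p = 0.915). The first call was lost whenever CD4 ThpokAD library 1 or 3 or any CD4 control library was left out (adjusted p up to 0.111), and the second without CD8 control library 1 or 2 or CD4 control library 1 (up to 0.0535).

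Insig1 (chr5:28071363-28078662, plus strand), itself a sterol-regulated gene whose product retains SCAP, had 64.2, 68.1 and 60.5 CPM in CD4 ThpokAD cells, 19.7, 37.8 and 9.79 CPM in CD8 control cells and 123, 124 and 143 CPM in CD4 control cells. The 3 groups did not overlap in any pair, with CD4 ThpokAD libraries lying between the other groups. Insig1 fell by 2.54 ± 0.41 on the log2 scale in CD8 control against CD4 control cells, 5.80-fold lower (edgeR adjusted p = 0.00459). Its log2 fold change in CD4 ThpokAD against CD4 control cells was -1.01 ± 0.39 (edgeR adjusted p = 0.246), and in CD4 ThpokAD against CD8 control cells it was 1.52 ± 0.40 (edgeR adjusted p = 0.0570), and neither was called. With only the 6 libraries compared in the fit, the first of these was called lower (adjusted p = 0.0106). The second was called higher with DESeq2 and with bias-adjusted deviances (adjusted p = 0.00145 and 0.0199), and without CD8 control library 2 (adjusted p = 0.00723). A processed pseudogene, Gm37784, matches 7.01% of the Insig1 transcript and held 263 counts against 11914 for Insig1.

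The other 5 regulators were not called in any comparison. Srebf1, the gene of SREBP1, which mainly drives fatty acid genes, had 78.2, 66.0 and 88.2 CPM in CD4 ThpokAD cells, 102, 94.5 and 102 CPM in CD8 control cells and 47.5, 94.7 and 102 CPM in CD4 control cells, with the lowest level in a CD4 control library. Scap, the escort of both SREBPs, averaged 49.2 ± 8.89, 58.0 ± 6.43 and 61.3 ± 6.95 CPM in CD4 ThpokAD, CD8 control and CD4 control cells (SD, n = 3 each). Insig2, the second INSIG gene, averaged 46.4 ± 4.43, 43.5 and 45.0 CPM in the same order of groups, with control libraries spread over 32.9 to 56.2 CPM. Nr1h2, which encodes LXR beta, averaged 104 ± 9.80, 110 ± 19.3 and 111 ± 2.43 CPM in that order. For Insig2 and Nr1h2 the log2 differences in the 3 comparisons lay between -0.10 and 0.09. Nr1h3, which encodes LXR alpha and is best known in macrophages and liver, had 14.0, 9.19 and 11.3 CPM in CD4 ThpokAD cells, 4.26, 2.37 and 6.61 CPM in CD8 control cells and 3.98, 5.03 and 9.38 CPM in CD4 control cells. Its log2 fold change in CD4 ThpokAD against CD8 control cells was 1.37 ± 0.50 with no overlap of the libraries (edgeR adjusted p = 0.149).

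**Figure D2:**
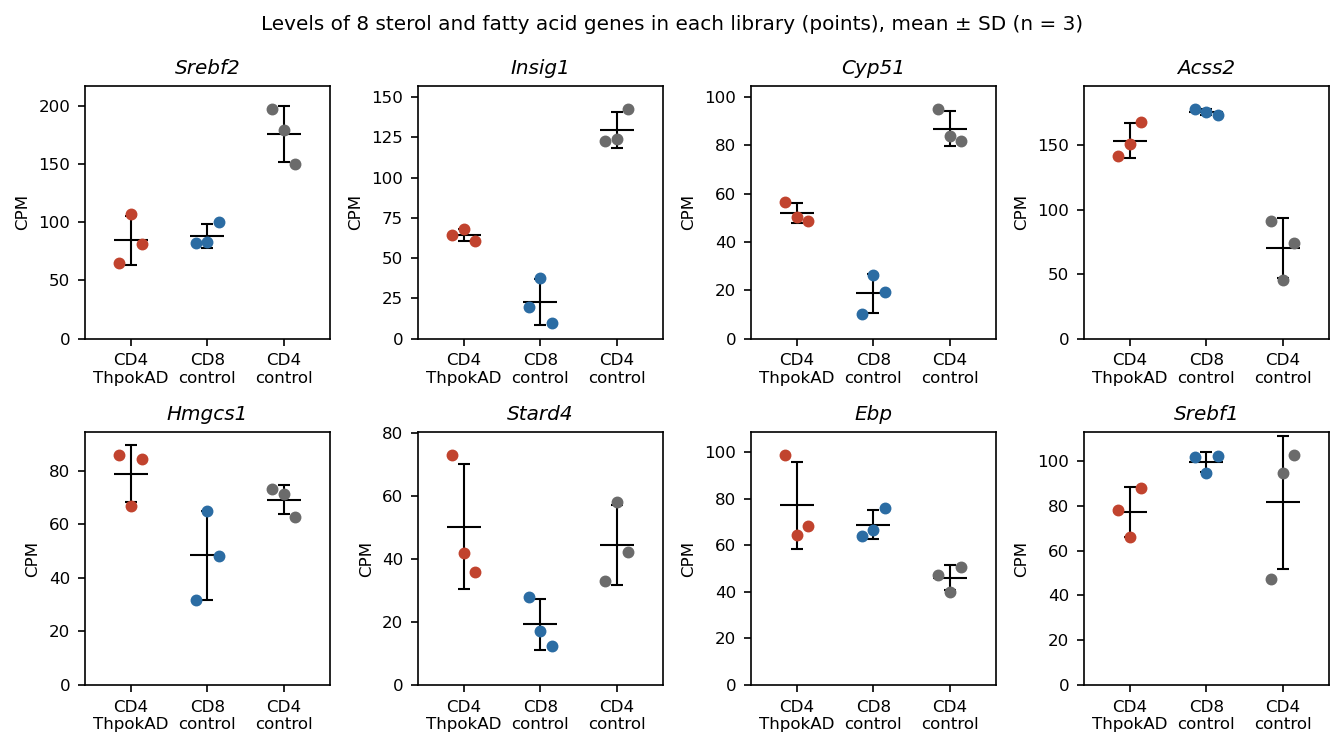
Level in CPM (vertical axes, from 0) of 8 sterol and fatty acid genes in each library (points) of the CD4 ThpokAD, CD8 control and CD4 control groups, with the mean (wide bar) and SD (n = 3). Srebf2, Insig1 and Cyp51 are highest in the CD4 control libraries, and Acss2 is lowest there, at 45.2 to 91.2 CPM.

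Among the sterol enzymes, Cyp51 was the only one called. Cyp51 (chr5:4081145-4104746, minus strand), the lanosterol demethylase, had 56.6, 50.5 and 48.5 CPM in CD4 ThpokAD cells, 10.3, 26.5 and 19.2 CPM in CD8 control cells and 95.1, 84.0 and 81.9 CPM in CD4 control cells. As for Insig1, the groups did not overlap in any pair and CD4 ThpokAD cells lay between the other groups. Cyp51 fell by 2.22 ± 0.31 on the log2 scale in CD8 control against CD4 control cells, 4.66-fold lower (edgeR adjusted p = 0.00197). It was 2.78-fold higher in CD4 ThpokAD than in CD8 control cells (log2 fold change 1.48 ± 0.30, edgeR adjusted p = 0.0221). This call was lost without CD4 ThpokAD library 1 or 2 or CD8 control library 3 (adjusted p up to 0.0743), and in the fit with only the 6 libraries compared. The log2 fold change in CD4 ThpokAD against CD4 control cells was -0.75 ± 0.29 and was not called (edgeR adjusted p = 0.255), though it was called in the fit with only these 6 libraries (adjusted p = 0.0363). Cyp51 shares 166 bases (3.76%) of its annotated exons with Akap9 on the opposite strand, and the library kit does not mark strand.

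Of the 7 mevalonate enzymes, none was called in any comparison. The edgeR test gave an unadjusted p under 0.05 for 2467, 4120 and 3347 of all 15738 tested genes in CD4 ThpokAD against CD4 control, CD8 control against CD4 control and CD4 ThpokAD against CD8 control cells. Of the 7 mevalonate enzymes it did so for 0, 2 and 1 in the same order, and DESeq2 called 0, 0 and 1. That gene was Hmgcs1, the HMG-CoA synthase, with 85.7, 66.6 and 84.5 CPM in CD4 ThpokAD cells, 31.9, 65.1 and 48.1 CPM in CD8 control cells and 73.1, 71.4 and 62.9 CPM in CD4 control cells. Its CD4 ThpokAD libraries were all above its CD8 control libraries, the nearest pair being 66.6 and 65.1 CPM (log2 fold change 0.71 ± 0.25, edgeR adjusted p = 0.138). Acat2, which condenses acetyl-CoA at the head of the pathway, averaged 30.1 ± 10.1, 36.7 ± 3.80 and 22.7 ± 5.23 CPM in CD4 ThpokAD, CD8 control and CD4 control cells. Mvd, the mevalonate diphosphate decarboxylase, averaged 19.2 ± 2.03, 20.2 ± 1.68 and 14.2 ± 2.39 CPM in the same groups. For both, all CD8 control libraries were above all CD4 control libraries, with log2 fold changes of 0.69 ± 0.29 and 0.51 ± 0.23 that were not called (edgeR adjusted p = 0.169 and 0.190).

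The other squalene and sterol enzymes showed no common direction. Ebp, the sterol isomerase, had 98.5, 64.6 and 68.3 CPM in CD4 ThpokAD cells, 64.0, 66.4 and 76.0 CPM in CD8 control cells and 47.3, 40.1 and 50.8 CPM in CD4 control cells. All CD4 control libraries were below the other 6, opposite to Cyp51. Its log2 fold changes of 0.74 ± 0.20 in CD4 ThpokAD against CD4 control cells and 0.58 ± 0.20 in CD8 control against CD4 control cells were not called (edgeR adjusted p = 0.0924 and 0.0942), and DESeq2 called the first of them (adjusted p = 0.0106). Nsdhl, a sterol dehydrogenase, averaged 34.5 ± 10.9, 16.2 ± 6.09 and 28.3 ± 10.4 CPM in CD4 ThpokAD, CD8 control and CD4 control cells and was not called. Sqle, the squalene epoxidase, averaged 33.0 ± 3.95, 26.8 ± 4.03 and 38.8 ± 12.8 CPM in the same groups, and Msmo1, a sterol oxidase, 35.4 ± 6.72, 38.8 ± 6.93 and 46.5 ± 3.80 CPM. Both were named for their place beside Cyp51 in the pathway, after their values were seen. Over all 11 enzymes of this step, the median log2 fold change was -0.003 in CD4 ThpokAD against CD4 control, -0.26 in CD8 control against CD4 control and 0.21 in CD4 ThpokAD against CD8 control cells, against -0.01 to 0.01 over all genes tested.

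**Figure D3:**
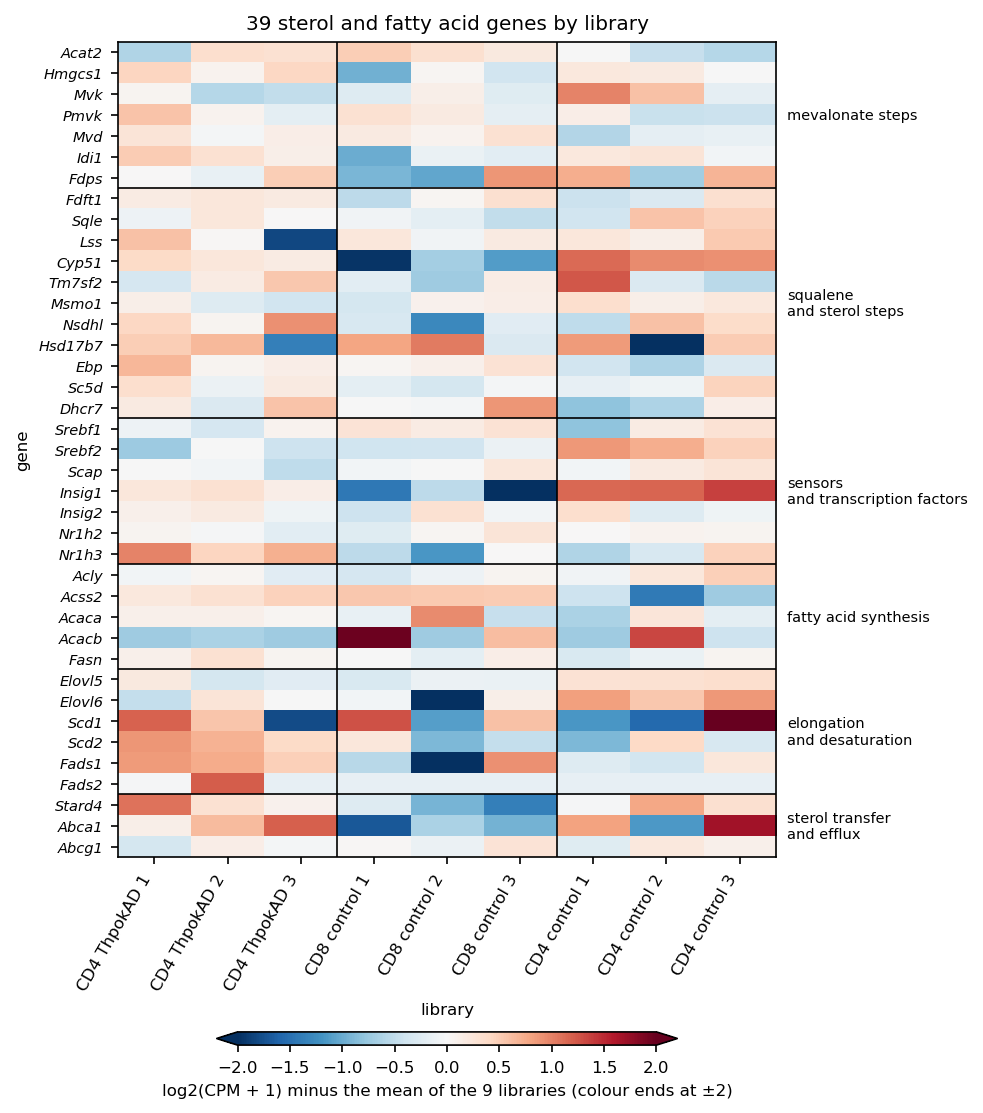
Log2(CPM + 1) of the 39 genes (rows, in the order of their roles) in each of the 9 libraries (columns), as the difference from the mean of the 9 libraries, with red above and blue below and the colours ending at ±2. Insig1, Cyp51 and Srebf2 are red in the CD4 control libraries, and Acss2 is blue there.

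In fatty acid synthesis the called gene was Acss2, whose enzyme makes acetyl-CoA from acetate. Acss2 (chr2:155517948-155585724, plus strand), the cytosolic and nuclear acetyl-CoA synthetase, had 142, 151 and 168 CPM in CD4 ThpokAD cells, 178, 176 and 174 CPM in CD8 control cells and 91.2, 45.2 and 74.2 CPM in CD4 control cells. All CD4 control libraries were below the other 6. Acss2 was 2.19-fold higher in CD4 ThpokAD than in CD4 control cells (log2 fold change 1.13 ± 0.23, edgeR adjusted p = 0.0344) and 2.51-fold higher in CD8 control than in CD4 control cells (1.33 ± 0.23, adjusted p = 0.00608). The first call was kept without CD4 control library 1 or 2, and was lost without each of the other 7 libraries and in the fit with only the 6 libraries compared (adjusted p up to 0.119), and the second was kept whichever library was left out. Between CD4 ThpokAD and CD8 control cells its log2 difference was -0.20, with a 95% interval of -0.74 to 0.35 (adjusted p = 0.697). Acss2 shares 9.12% of its exons with Gss, Ggt7 and Acss2os on the opposite strand, which held 3842, 782 and 14 counts over the 9 libraries against 27252 for Acss2.

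The other fatty acid synthesis genes were not called. Acly, which makes acetyl-CoA from citrate, was the most abundant of the 39 genes, with 359, 384 and 321 CPM in CD4 ThpokAD cells, 296, 347 and 387 CPM in CD8 control cells and 357, 436 and 520 CPM in CD4 control cells. Its groups overlapped, and the log2 fold changes against CD4 control cells were -0.30 ± 0.16 in CD4 ThpokAD cells and -0.35 ± 0.16 in CD8 control cells (edgeR adjusted p = 0.421 and 0.203). Fasn, the fatty acid synthase, averaged 134 ± 12.9, 118 ± 13.6 and 110 ± 13.3 CPM in CD4 ThpokAD, CD8 control and CD4 control cells. Acaca, the cytosolic acetyl-CoA carboxylase, averaged 18.8 ± 0.55, 21.2 ± 12.1 and 15.8 ± 4.98 CPM. Both were named after their values were seen, for their place in the pathway. Acacb, the mitochondrial carboxylase, had 0, 1 and 0 counts in CD4 ThpokAD libraries, 129, 0 and 62 in CD8 control libraries and 0, 55 and 4 in CD4 control libraries, too few in most libraries for a fold to be read.

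In elongation and desaturation, Elovl5, an elongase of polyunsaturated fatty acids, had 263, 180 and 196 CPM in CD4 ThpokAD cells, 186, 212 and 209 CPM in CD8 control cells and 279, 283 and 290 CPM in CD4 control cells. Every CD4 control library was above the other 6, yet the log2 fold changes of -0.42 ± 0.15 in CD4 ThpokAD and -0.49 ± 0.15 in CD8 control cells were not called (edgeR adjusted p = 0.205 and 0.0664). The second was called with DESeq2 (adjusted p = 0.00834), with only the 6 libraries compared (0.0356) and without CD4 ThpokAD library 1 (0.0295). Elovl6, an elongase of saturated fatty acids, was low, at 4.29, 7.77 and 6.31 CPM in CD4 ThpokAD cells, 4.61 ± 3.36 CPM (SD, n = 3, lowest library 0.775) in CD8 control cells and 12.0, 9.66 and 12.4 CPM in CD4 control cells, and it was not called. Scd2, the stearoyl-CoA desaturase with most counts here, had 86.3, 76.0 and 61.1 CPM in CD4 ThpokAD cells, 54.5, 24.5 and 33.1 CPM in CD8 control cells and 24.5, 61.7 and 37.1 CPM in CD4 control cells. The CD4 ThpokAD libraries were all above the CD8 control libraries (log2 fold change 0.99 ± 0.38, edgeR adjusted p = 0.173). Scd1, its close relative, had 145, 79 and 1 counts in CD4 ThpokAD libraries, 186, 14 and 180 in CD8 control libraries and 10, 4 and 232 in CD4 control libraries, so its libraries differed widely within each group.

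The 3 sterol transfer and efflux genes were not called by edgeR in any comparison. Stard4, a cytosolic sterol carrier regulated by SREBP2, had 72.7, 41.9 and 35.8 CPM in CD4 ThpokAD cells, 28.0, 17.2 and 12.4 CPM in CD8 control cells and 32.9, 58.0 and 42.3 CPM in CD4 control cells. All CD8 control libraries were below the other 6. Its log2 fold changes were -1.21 ± 0.38 in CD8 control against CD4 control cells and 1.39 ± 0.38 in CD4 ThpokAD against CD8 control cells (edgeR adjusted p = 0.0761 and 0.0682), and DESeq2 called both. Bias-adjusted deviances also called the second (adjusted p = 0.0366), and the first was called without CD8 control library 1 (adjusted p = 0.0479). Abca1, a sterol exporter and LXR target, had 2.64, 4.21 and 6.74 CPM in CD4 ThpokAD cells, 0.0418, 1.16 and 0.740 CPM in CD8 control cells and 4.91, 0.514 and 9.79 CPM in CD4 control cells, where 1 library lay within the CD8 control range. It was not called, although DESeq2 called it lower in CD8 control than in CD4 control cells. Abcg1, the other LXR-driven exporter, averaged 37.5 ± 6.27, 41.2 ± 5.86 and 40.4 ± 6.47 CPM in CD4 ThpokAD, CD8 control and CD4 control cells.

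Nr1h3, Abca1 and Abcg1 are also macrophage genes, and markers of other cells were present in these libraries. The 15 myeloid markers summed to 458 to 602 CPM in CD4 ThpokAD cells, 197 to 422 CPM in CD8 control cells and 238 to 421 CPM in CD4 control cells, and none was at 0 in all libraries of a group. Of these 15, 4 were called higher and 0 lower in CD4 ThpokAD against CD8 control cells, 2 higher and 0 lower in CD4 ThpokAD against CD4 control cells, and 1 higher and 0 lower in CD8 control against CD4 control cells. The 7 dendritic cell markers summed to 671 to 1409 CPM in CD4 ThpokAD cells, 193 to 306 CPM in CD8 control cells and 641 to 1181 CPM in CD4 control cells, mostly from Cd74 and H2-Ab1, and Siglech was at 0 in all CD4 ThpokAD and CD4 control libraries. Of its 6 tested genes, 2 were called higher in CD4 ThpokAD against CD8 control cells, 2 lower in CD8 control against CD4 control cells and 0 in CD4 ThpokAD against CD4 control cells, where 1 had an unadjusted p under 0.05 and DESeq2 called 0. The 6 B cell markers summed to 25.9 to 59.0 CPM in CD4 ThpokAD cells, 32.7 to 57.9 CPM in CD8 control cells and 28.7 to 44.8 CPM in CD4 control cells, with 1 called, higher in CD8 control against CD4 control cells. The 4 NK cell markers summed to 57.4 to 101 CPM in CD4 ThpokAD cells, 121 to 140 CPM in CD8 control cells and 5.20 to 14.8 CPM in CD4 control cells, and Klra8 was at 0 in all CD4 ThpokAD libraries and Ncr1, Klra4 and Klra8 in all CD4 control libraries. Of the 3 NK cell markers tested, 2 were called higher in CD4 ThpokAD and 2 in CD8 control cells, each against CD4 control cells, and 0 between CD4 ThpokAD and CD8 control cells, where 0 had an unadjusted p under 0.05 and DESeq2 called 0. The 6 erythroid markers summed to 6.59 to 102 CPM in CD4 ThpokAD cells, 11.8 to 52.3 CPM in CD8 control cells and 4.06 to 119 CPM in CD4 control cells. For comparison with these marker counts, edgeR called 4.63% of all tested genes higher in CD4 ThpokAD against CD8 control cells and 1.81% higher in CD4 ThpokAD against CD4 control cells. It called 5.13% higher and 6.55% lower in CD8 control against CD4 control cells. The part of other cells in the values of the sterol and fatty acid genes was not tested.

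The summed level of 20 cell cycle genes was 1983 to 2697 CPM in CD4 ThpokAD cells, 718 to 937 CPM in CD8 control cells and 639 to 874 CPM in CD4 control cells, highest in the CD4 ThpokAD libraries. Of these genes, 7 (35%) were called higher and 0 lower in CD4 ThpokAD against CD4 control cells, where 1.81% and 0.928% of all tested genes were. In CD4 ThpokAD against CD8 control cells 9 (45%) were called higher and 0 lower, where 4.63% and 1.91% of all tested genes were. The median log2 fold changes were 2.28 and 2.65. In CD8 control against CD4 control cells edgeR called 0, against 11.7% of all tested genes, and DESeq2 called 1. There 3 of the 20 had an unadjusted p under 0.05, as did 4120 of all 15738 tested genes. The count of 7 was 3 without CD4 ThpokAD library 1 or 2 or CD4 control library 1 or 2, and 4 without CD4 control library 3, and it was 11 with DESeq2, 15 with bias-adjusted deviances and 13 with only the 6 libraries compared. The count of 9 was 3, 5 and 4 without CD4 ThpokAD library 1, 2 and 3, 5 without CD8 control library 2 and 15 with bias-adjusted deviances. The part of cell division in the values of the sterol genes was not tested.

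Summed over their roles, the 7 sensors and transcription factors had 415 to 460 CPM in CD4 ThpokAD cells, 385 to 456 CPM in CD8 control cells and 590 to 626 CPM in CD4 control cells, with the CD4 control libraries above the other 6. The 5 fatty acid synthesis genes summed to 631 to 702 CPM in CD4 ThpokAD cells, 615 to 706 CPM in CD8 control cells and 557 to 734 CPM in CD4 control cells, and the groups overlapped. The 7 mevalonate enzymes summed to 141 to 159, 112 to 141 and 116 to 144 CPM in the CD4 ThpokAD, CD8 control and CD4 control groups. The 3 transfer and efflux genes summed to 80.9 to 106 CPM in CD4 ThpokAD cells, 54.6 to 67.9 CPM in CD8 control cells and 70.9 to 104 CPM in CD4 control cells, and the CD8 control libraries were below the other 6. The same was true of the 11 squalene and sterol enzymes, with 327 to 406, 267 to 320 and 344 to 406 CPM, and of the 6 elongation and desaturation genes, with 280 to 384, 241 to 277 and 326 to 367 CPM. These sums weigh each gene by its level, carry no test and do not show that a whole role shifts. Much of the difference among the sensors lay in Srebf2 and Insig1. They averaged 176 and 130 CPM in CD4 control cells, 84.6 and 64.3 CPM in CD4 ThpokAD cells and 88.3 and 22.5 CPM in CD8 control cells. Cyp51 averaged 51.9, 18.7 and 87.0 CPM in the CD4 ThpokAD, CD8 control and CD4 control groups. It made a large part of the difference among the squalene and sterol enzymes.

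**Figure D4:**
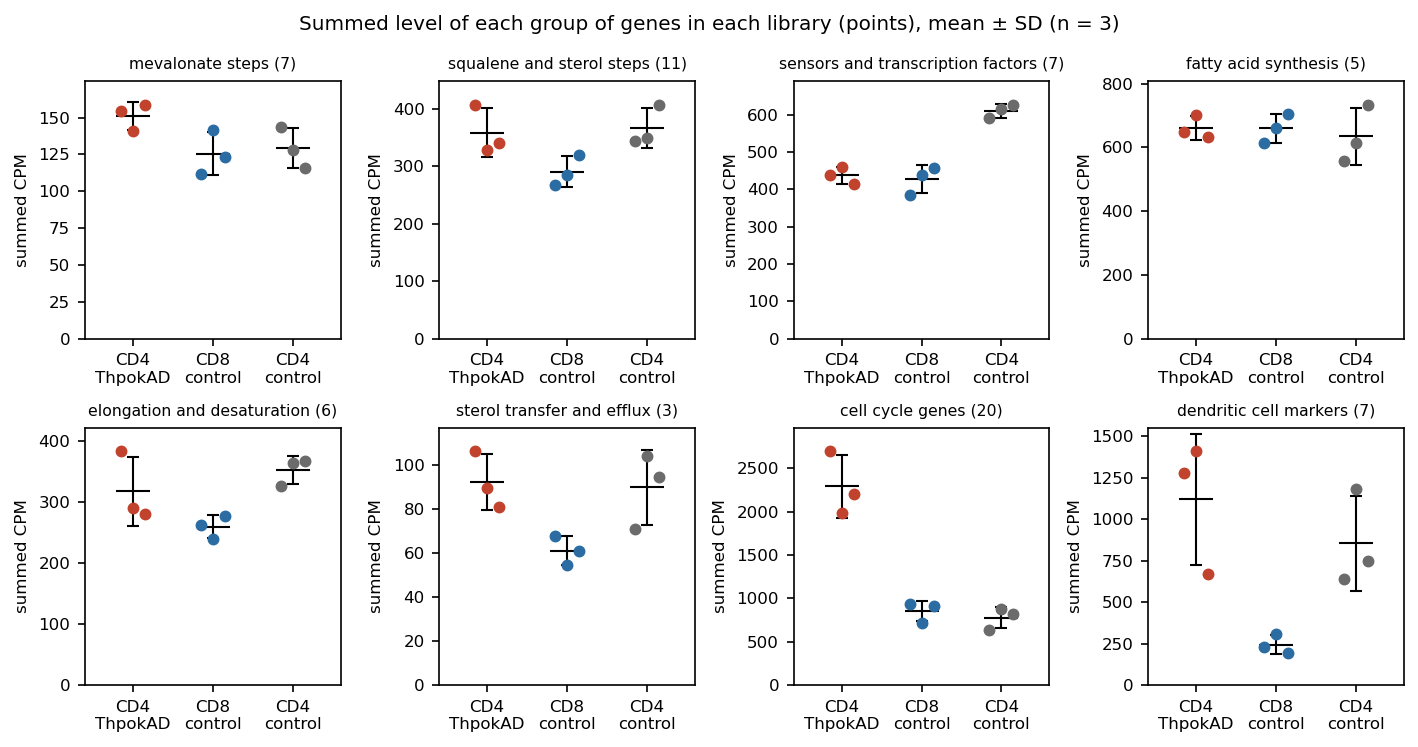
Summed CPM (vertical axes, from 0) of the 6 role lists, the cell cycle genes and the dendritic cell markers in each library (points), with the mean (wide bar) and SD (n = 3) of the CD4 ThpokAD, CD8 control and CD4 control groups. The summed sensors and transcription factors are highest in the CD4 control libraries, at 590 to 626 CPM, a difference mostly of Srebf2 and Insig1. The summed cell cycle genes are highest in the CD4 ThpokAD libraries.

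Levels were also set per kilobase of annotated exon, which adjusts for length only roughly, since the exons of all transcripts of a gene are joined. For Acss2 these come to 10163 bases, while its longest coding transcript has 2931, so the ranks below could change with the length used. By this measure Acly led all groups, with 67.2 ± 5.99 CPM per kb in CD4 ThpokAD cells, 65.0 ± 8.62 in CD8 control cells and 83.0 ± 15.4 in CD4 control cells (SD, n = 3 each). Elovl5 followed with 60.4 ± 12.5, 57.5 ± 4.03 and 80.6 ± 1.52 CPM per kb, and the spreads of Elovl5 and Acly overlapped in each group. The third place was taken by Ebp in CD4 ThpokAD cells (33.4 ± 8.06 CPM per kb), by Nr1h2 in CD8 control cells (32.9 ± 5.76) and by Insig1 in CD4 control cells (42.0 ± 3.61). Nr1h2 in CD4 ThpokAD cells (31.0 ± 2.92) and Ebp in CD8 control cells (29.8 ± 2.74) lay within the spread of those values. Insig1 ranked 5 in CD4 ThpokAD cells, at 20.8 ± 1.22 CPM per kb, and was not among the leading 8 genes in CD8 control cells. Srebf2 ranked 5 in CD4 control cells, at 24.5 ± 3.33 CPM per kb. In CD4 control cells Ebp and Cyp51 followed at 19.9 ± 2.35 and 19.7 ± 1.61 CPM per kb, within their spread. Acacb and Fads2 were lowest there, with Abca1, Fdps and Tm7sf2 above them.

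**Figure D5:**
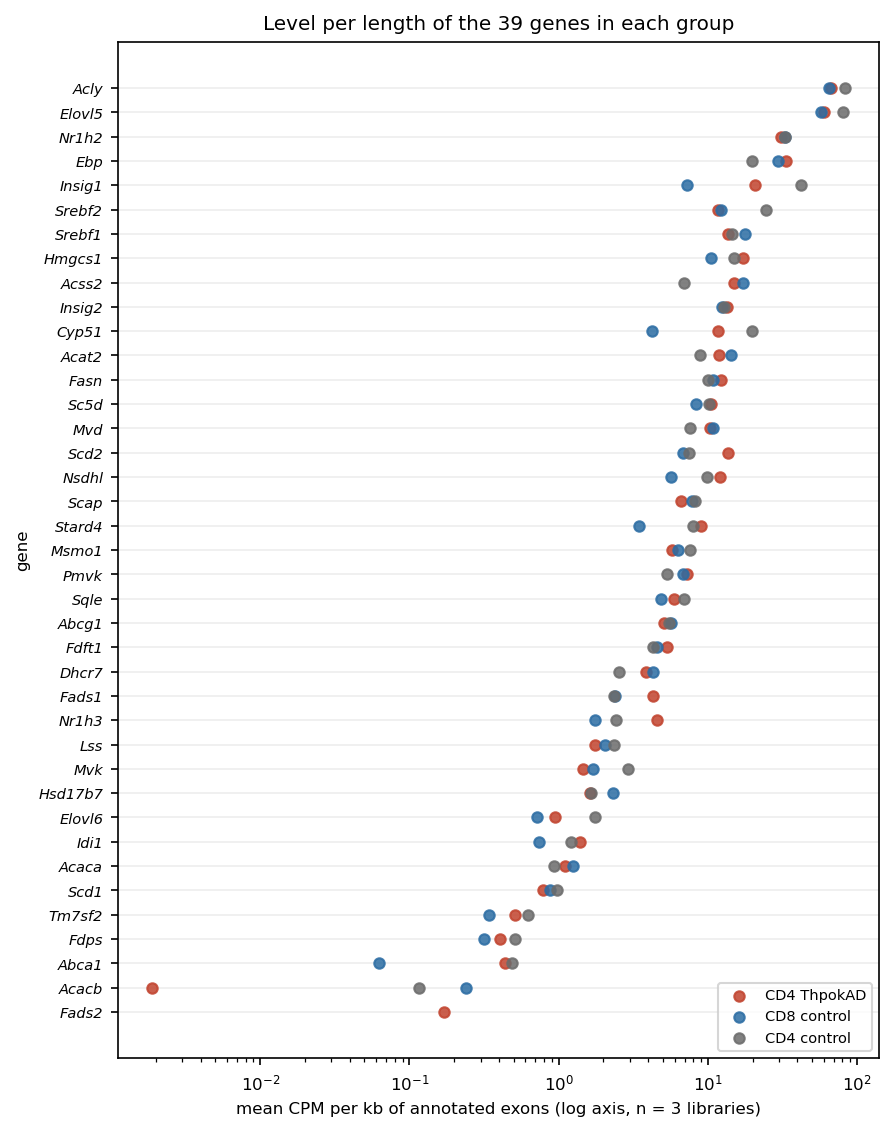
Mean CPM per kb of annotated exons (log axis) of each of the 39 genes in CD4 ThpokAD, CD8 control and CD4 control cells (n = 3 libraries each), sorted by the mean over the groups. Acly and Elovl5 stand highest in all groups, and a group with no count is not drawn (Fads2 in both control groups).

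Reads of some members could be split with near-identical or overlapping genes, so their values are uncertain. Acat2 matches the chaperonin gene Tcp1 over 19.8% of its transcript and its relative Acat3 over 65.6%, with 41825 and 40 counts over the 9 libraries against 5912 for Acat2. Acaca matches the processed pseudogene Gm5182, which was not analysed here, over 64.3% of its transcript. Fdps, the farnesyl diphosphate synthase, had 359 counts over the 9 libraries, while its processed pseudogenes Gm3571 and Gm5873 had 1549 and 486. It also shares 26.7% of its exons with Gm43738 on the same strand, which matches 81.6% of the Fdps transcript and had 0 counts. Fdft1, the squalene synthase, shares 18.3% of its exons with Ctsb on the opposite strand, which had 130178 counts against 3951. Idi1, the isopentenyl diphosphate isomerase, had 721 counts while its pseudogene Gm13502 had 402. Tm7sf2, a sterol reductase, shares 12.1% of its exons with Vps51 on the same strand. Among the 16 tested genes that fell outside the rule for naming genes, the smallest adjusted p was 0.345 in CD4 ThpokAD against CD4 control, 0.257 in CD8 control against CD4 control and 0.313 in CD4 ThpokAD against CD8 control cells. Within groups, the highest library was more than 5 times the lowest for 3 genes in CD4 ThpokAD cells, 5 in CD8 control cells and 5 in CD4 control cells, among the 37 with a count in every library of the group. The median of that ratio was 1.42, 1.67 and 1.55 in the same order of groups, and replicates differed by more than sampling noise (chi-square per degree of freedom of 32.6 to 161).

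Other sterol and lipid genes were examined from lists chosen by pathway. Of 29 further sterol genes, 24 were tested, and 1 (4.17%, against 11.7% of all tested genes) was called, in CD8 control against CD4 control cells: Soat2, which esterifies cholesterol. Soat2 had 5.94, 5.14 and 11.1 CPM in CD4 ThpokAD cells, 21.6, 14.4 and 13.6 CPM in CD8 control cells and 2.61, 3.66 and 3.73 CPM in CD4 control cells. It was 4.94-fold higher in CD8 control than in CD4 control cells (log2 fold change 2.31 ± 0.42, edgeR adjusted p = 0.00809). In the other comparisons edgeR called 0 of the 24, with 6 and 5 at an unadjusted p under 0.05 in CD4 ThpokAD against CD4 control and against CD8 control cells, where DESeq2 called 3 and 2. Over all 15738 tested genes, 2467 and 3347 had an unadjusted p under 0.05 in these comparisons, and edgeR called 2.74% and 6.54%.

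Of 35 further fatty acid and glycerolipid genes, 26 were tested. Called were 1 of the 26 in CD4 ThpokAD against CD4 control cells, higher, 4 in CD8 control against CD4 control cells, 1 of them higher, and 2 in CD4 ThpokAD against CD8 control cells, both higher. These shares of 3.85%, 15.4% and 7.69% are near the 2.74%, 11.7% and 6.54% of all tested genes called in the same comparisons. Dgat1, which makes triglyceride from diacylglycerol, had 415, 424 and 301 CPM in CD4 ThpokAD cells, 41.9, 38.1 and 28.5 CPM in CD8 control cells and 749, 517 and 562 CPM in CD4 control cells. It fell by 4.08 ± 0.23 on the log2 scale in CD8 control against CD4 control cells and was 3.40 ± 0.22 higher in CD4 ThpokAD than in CD8 control cells on that scale (edgeR adjusted p = 1.4e-05 and 5.5e-05). The CD4 ThpokAD against CD4 control log2 fold change of Dgat1, -0.68 ± 0.20, was not called (edgeR adjusted p = 0.139), and DESeq2 called it lower (adjusted p = 0.0211). Acsl3, an acyl-CoA synthetase of lipid droplets, had 168, 291 and 98 counts in CD4 ThpokAD libraries, 0, 0 and 1 in CD8 control libraries and 357, 491 and 319 in CD4 control libraries, and it was called lower in CD8 control than in CD4 control cells and higher in CD4 ThpokAD than in CD8 control cells (edgeR adjusted p = 7.2e-05 and 0.00021). Acsl3 shares 5.6% of its exons with Utp14b on the same strand. Lpin1, a phosphatidate phosphatase, had 190, 194 and 225 CPM in CD4 ThpokAD cells, 193, 181 and 248 CPM in CD8 control cells and 92.8, 112 and 99.6 CPM in CD4 control cells. It was 2.00-fold higher in CD4 ThpokAD and 2.05-fold higher in CD8 control cells than in CD4 control cells (edgeR adjusted p = 0.0112 and 0.00282), and the first call was lost without CD4 control library 1 or 3 (adjusted p = 0.0567 and 0.0516). Hacd3, a dehydratase of fatty acid elongation, had 128, 133 and 119 CPM in CD4 ThpokAD cells, 135, 89.3 and 108 CPM in CD8 control cells and 174, 231 and 234 CPM in CD4 control cells, and it was called lower in CD8 control than in CD4 control cells (log2 fold change -0.95 ± 0.18, edgeR adjusted p = 0.00996). In CD4 ThpokAD against CD4 control cells Hacd3 was not called by edgeR, but was called lower by DESeq2 (log2 fold change -0.76, adjusted p = 0.00165), with bias-adjusted deviances (0.0487), with only the 6 libraries compared (0.0391) and without CD8 control library 2 (0.0492).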

How the data were processed

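The 9 samples were sorted mouse T cells. Per the labels' protocols, their RNA was amplified by low-input kits, which leave strand unmarked, and read from both ends over 126 bp. Tools named in the submitters' processing notes, with no role given, are STAR, HTSeq, Trimmomatic, DESeq2 and bcl2fastq (2.17), with mm10 as the build. The annotation release and strand setting behind the counting were not stated in any source at hand. Deposited values are raw counts, whole numbers for each gene symbol. Another deposited table, in which each value is a count times 1 factor per library, was not used.

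Samples were grouped by their labels. The quasi-likelihood test of edgeR 4.0.16 (R 4.3.3, limma 3.58.1) was fitted to all 9 libraries with TMM scaling after filterByExpr (minimum count 10, minimum total 15), and p-values were adjusted by Benjamini-Hochberg over 15738 genes in each comparison. Each SE is the size of the log2 fold change over the root of its F statistic. The test was run on simulated counts with known fold changes. Their spread followed the dispersion trend alone, without differences between genes of the same level. That run therefore does not show how firmly the calls in these data hold. DESeq2 1.42.0 and other settings were alternatives. Intervals cover 95%. Positions, exon lengths and transcripts came from GENCODE M21 (GRCm38), and promoter windows from RefSeq (GRCm38.p6).

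The members, the pathway lists and the tests were chosen with earlier results of these data known. Genes named are those called, all sensors and factors, and in each other role the 3 with the smallest p and the most abundant, plus called genes of other pathway lists with the 4 smallest p per comparison.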

Additional observations from a re-analysis of the deposited data

How the results depend on the processing

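The 22 named genes were refitted under 6 other settings and with each library left out. RLE size factors, no filter on low counts and bias-adjusted deviances lost no member's call. In CD8 control against CD4 control cells Acss2, Cyp51 and Insig1 kept their calls under every setting run. Members called lower there were 6 with DESeq2 and 2 to 4 with a library left out. Against CD4 control cells, members called higher in CD4 ThpokAD cells were 2 with DESeq2, 0 with only the 6 libraries compared and 0 to 1 with a library left out, and members called lower were 3 with only the 6 libraries compared and 0 to 1 with a library left out. Against CD8 control cells, members called higher in CD4 ThpokAD cells were 4 with DESeq2, 3 with bias-adjusted deviances, 0 with only the 6 libraries compared and 0 to 2 with a library left out, and 0 were called lower under every setting. Where settings changed a call, the cause was not tested.

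The counts gave no sign that replicate numbers pair the libraries: deviations of same-numbered libraries correlated at -0.05 to 0.06 (9 pairs), against -0.05 to 0.03 for other pairs (18). The labels do not say whether libraries of the same number share an origin, and these correlations cannot exclude it. With the replicate block, 0 members were called in either direction in CD4 ThpokAD against CD4 control and 0 higher in CD4 ThpokAD against CD8 control cells, where the adjusted p was 0.0701 for Srebf2 and 0.0646 for Acss2 in the first comparison and 0.0521 for Cyp51 in the second.

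Over all tested genes, calls in CD4 ThpokAD against CD4 control cells were 751 higher and 539 lower with DESeq2, 225 lower with bias-adjusted deviances, 86 lower with the replicate block, 246 lower with only the 6 libraries compared, and 131 to 281 higher and 50 to 196 lower with a library left out. In CD8 control against CD4 control cells they were 1312 higher and 1665 lower with DESeq2, and 421 to 707 higher and 637 to 960 lower with a library left out. Calls in CD4 ThpokAD against CD8 control cells were 1415 higher and 750 lower with DESeq2, 1108 higher and 530 lower with bias-adjusted deviances, 183 lower with the replicate block, and 438 to 586 higher and 143 to 222 lower with a library left out.

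No called value changed sign, and the values that did were not called. Abcg1 in CD8 control against CD4 control cells had log2 fold changes of -0.0057 with DESeq2 and -0.0061 with RLE size factors, against 0.03. With a library left out, log2 fold changes in CD4 ThpokAD against CD4 control cells ranged from -0.35 to 0.12 for Srebf1, -0.082 to 0.23 for Insig2, -0.20 to 0.41 for Stard4, -0.70 to 0.74 for Abca1 and -0.23 to 0.0049 for Abcg1. In CD8 control against CD4 control cells they ranged from -0.24 to 0.14 for Insig2, -0.15 to 0.11 for Nr1h2, -0.54 to 4.23 for Acacb, -0.51 to 0.28 for Scd2 and -0.094 to 0.13 for Abcg1. The ranges in CD4 ThpokAD against CD8 control cells were -0.060 to 0.28 for Ebp, -0.27 to 0.084 for Srebf2, -0.081 to 0.28 for Insig2, -0.22 to 0.043 for Nr1h2, -0.063 to 0.14 for Acly, -0.12 to 0.18 for Elovl5, -0.11 to 0.83 for Elovl6 and -0.14 to 0.11 for Lpin1. Settings for the other lipid genes and the cell cycle genes were chosen after seeing the data. Acacb, Fads2 and Scd1 had few or no counts in some libraries, and the cause was not tested. The fold range of Acacb is not to be read as a size.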
